A study of Mus musculus with 6 samples.

Results

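The gap junction proteins (connexins) and the related pannexins were examined in cortical neural progenitors and in the neurons they give rise to. The genes were chosen by name: the connexin genes Gja1, Gjb2, Gjb6, Gjc1 and Gjd2 and the pannexin genes Panx1 and Panx2, 7 of the 19938 genes measured. Each gene was read from the probe set annotated to its symbol alone, and all 7 had 1 such probe set. Both groups came from the brains of C57BL/6J mice, and cells were separated by fluorescence-activated cell sorting. The GFP+ group (3 arrays) is labelled as cortical neural progenitors that carry a green reporter. The RFP+ group (3 arrays) is labelled as neuronal progeny, in the stage "Differentiated", that carry a red reporter. Cortex is named as the origin of the progenitors, whereas the labels of the neurons give the brain without a region. Neither the promoters behind the reporters nor the animals' age is stated in the labels. Nothing says whether the arrays of a group came from separate animals, and the p-values therefore cover the spread among these arrays alone, which may be technical.

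Connexins assemble into hemichannels in the cell membrane, and hemichannels of neighbouring cells dock to form gap junctions, through which ions, metabolites and second messengers pass. Radial glia, the progenitors of the developing cortex, are coupled to each other by gap junctions, and calcium waves that involve ATP release and IP3 spread among them. Pannexins share the membrane topology of connexins but mostly act as channels of a single membrane, and Panx1 is best known as a route for ATP release. In the mature brain Gja1 (Cx43) and Gjb6 (Cx30) are connexins of astrocytes, and Gjd2 (Cx36) is the main connexin of electrical synapses between neurons.

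Values are intensities on a linear scale as deposited by the authors, with array medians of 210.3 to 221.1. The near-background level was judged from 1015 olfactory receptor genes, whose 95th percentiles were 201.5 to 224.1 per array. A log2 difference is the GFP+ mean minus the RFP+ mean of log2(intensity + 16), given with its standard error (SE). It was tested with limma and adjusted over all genes by the Benjamini-Hochberg method, with a threshold of 0.05. Folds come from the same values, so those of dim genes are understated. All 10 radial glia markers were higher in GFP+ arrays and all 10 neuronal markers were higher in RFP+ arrays, in the directions of the labels. The neuronal markers were still bright in GFP+ arrays, where their summed intensity was 25009 to 28987 against 63626 to 68688 in RFP+ arrays.

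Of the 7 genes, 1 was higher in GFP+ progenitors and 1 in RFP+ neurons, and 5 did not pass the threshold. Over all genes tested, 30% passed, 13.7% as higher in GFP+ and 16.2% as higher in RFP+, so the share among the 7 is near that of all genes. The median log2 difference was 0.03 over the 7 genes and -0.08 over all genes. The groups did not overlap for 3 of the 7, against 43.9% of all genes.

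Gja1 (probe set 10363173) encodes Cx43, the connexin most studied in radial glia. Its intensity was 1556.5, 1955.9 and 1683.1 in the GFP+ arrays numbered 1 to 3 and 205.7, 235.6 and 198.2 in the RFP+ arrays. Every progenitor array lay far above every neuron array. The mean was 1731.8 ± 204.1 in GFP+ progenitors and 213.1 ± 19.8 in RFP+ neurons (SD, n = 3 arrays each). This was a 7.61-fold higher level in progenitors (log2 difference 2.93 ± 0.20 SE, adjusted p = 3.02e-09, limma). The 95% interval of the fold ran from 5.69 to 10.2. In size of difference Gja1 ranked 87th among the 19938 genes. Between arrays of the same number the log2 difference was 2.83, 2.97 and 2.99. In the RFP+ arrays Gja1 lay close to the olfactory receptor 95th percentile, above it on 1 of the 3, so the fold moves with the offset, from 2.69 (log2, offset 64) to 3.01 (offset 1). In such bulk samples fewer Gja1-expressing cells and less Gja1 RNA per cell cannot be told apart.

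Gjc1 (probe set 10391762) encodes Cx45, a connexin described in the early heart, in vascular smooth muscle and in some neurons. It read 1581.3, 1511.9 and 1556.2 in GFP+ arrays, a narrow range, and 1221.5, 1014.1 and 1052.4 in RFP+ arrays. The groups did not overlap, and the progenitors were on the high side in all 3 number-matched pairs. The difference was 1.41-fold, or 0.50 ± 0.20 SE on the log2 scale, and missed the threshold (adjusted p = 0.0631, limma). With the replicate number as a block the same difference passed (adjusted p = 0.0318, limma). It also passed under 5 other alternatives, among them quantile normalization and the removal of dim genes, so the call for Gjc1 rests on the choice of fit while its direction was the same under every alternative run.

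Gjb2 (probe set 10420362) encodes Cx26, which has been described in radial glia beside Cx43 and is also a connexin of the meninges. Its intensities were 314.5, 266.0 and 211.9 in GFP+ arrays and 240.2, 255.6 and 217.7 in RFP+ arrays. The neuron arrays fell inside the range of the progenitor arrays. The log2 difference was 0.13 ± 0.21 SE (adjusted p = 0.672, limma), with a 95% interval from 1.24-fold higher in neurons to 1.48-fold higher in progenitors. Of the 6 arrays, 5 lay above the olfactory receptor 95th percentile of the same array.

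Gjb6 (probe set 10420366), the Cx30 gene of astrocytes, was dim throughout. It read 86.7, 54.0 and 30.6 in GFP+ arrays and 40.3, 63.3 and 54.2 in RFP+ arrays, below the olfactory receptor 95th percentile on all 6. The progenitor arrays spanned a wider range than the neuron arrays and enclosed them. The log2 difference was 0.03 ± 0.25 SE (adjusted p = 0.934, limma), with an interval from 1.41-fold higher in neurons to 1.48-fold higher in progenitors, and its sign turned when either array numbered 1 was left out (-0.25 without GFP+ replicate 1, -0.10 without RFP+ replicate 1). In the GRCm38.p6 assembly Gja3, Gjb2 and Gjb6 are neighbours with no other protein-coding gene between them. Gja3 (Cx46, known from the lens) also did not pass, with a log2 difference of -0.04 ± 0.22 SE (adjusted p = 0.910, limma).

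Gjd2 (probe set 10485979), the gene of the neuronal connexin Cx36, read 185.3, 177.9 and 177.1 in GFP+ arrays. In RFP+ arrays it read 333.8, 176.7 and 249.4, so 2 neuron arrays lay above all progenitor arrays and 1 lay below them. Those same 2 neuron arrays were the only ones above the olfactory receptor 95th percentile. The log2 difference was -0.42 ± 0.22 SE (adjusted p = 0.170, limma), and its interval ran from 1.85-fold higher in neurons to 1.04-fold higher in progenitors. The spread between neuron arrays, an SD of 0.43 on the log2 scale, was as large as the difference itself. Summed markers of inhibitory neurons, a cell type in which Gjd2 is known, were 15861, 12458 and 6184 in the RFP+ arrays numbered 1 to 3. In the GFP+ arrays, where Gjd2 varied little, the same sums were 14361, 15756 and 12154. The part of inhibitory neurons in the spread of Gjd2 was not tested.

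Panx1 (probe set 10590983), the ATP-release channel gene, went the other way from Gja1. Its intensity was 1472.4, 1714.0 and 1353.2 in GFP+ arrays and 3085.2, 3170.1 and 2471.7 in RFP+ arrays. Every neuron array exceeded every progenitor array, and progenitors were well above the near-background level too. The means were 1513.2 ± 183.9 in GFP+ progenitors and 2909.0 ± 381.1 in RFP+ neurons (SD, n = 3 each). The level was 1.91-fold higher in neurons (log2 difference -0.93 ± 0.21 SE, adjusted p = 0.00153, limma), with a 95% interval of 1.42 to 2.57-fold. Number-matched pairs differed by -1.06, -0.88 and -0.86. In both groups array 2 was the highest and array 3 the lowest.

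Panx2 (probe set 10426150) encodes a pannexin found mostly in the central nervous system. It read 250.8, 213.0 and 209.1 in GFP+ arrays and 268.5, 319.6 and 224.3 in RFP+ arrays. The ranges overlapped, since the highest progenitor array exceeded the lowest neuron array. The log2 difference of -0.25 ± 0.21 SE did not pass (adjusted p = 0.386, limma), and its interval reached from 1.60-fold higher in neurons to 1.14-fold higher in progenitors.

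**Figure D1:**
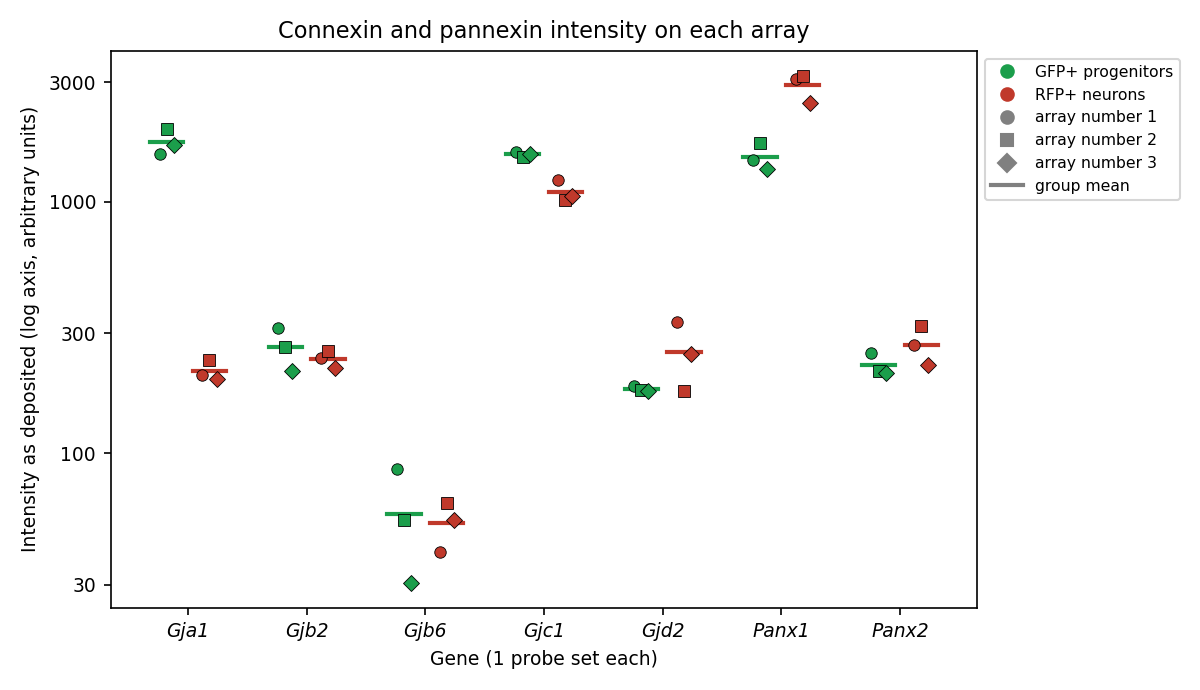
Deposited intensity (log axis) of the 7 genes on each of the 6 arrays, green for GFP+ progenitors and red for RFP+ neurons, with the marker shape giving the array number and the bar the group mean. Gja1 separates the groups from about 1731.8 to 213.1, Panx1 separates them the other way from 1513.2 to 2909.0, Gjc1 parts them narrowly, and the other genes overlap.

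Stretches of DNA before the start of Gja1 and Panx1 are shown because these are the 2 genes of the set whose RNA passed the threshold. They are the 250 bases that precede the RefSeq transcription start in GRCm38.p6, read 5′ to 3′ on the strand of the gene. Of the 7 genes, 5 had an entry in the promoter table. Capitals mark matches to any of 4 short motifs searched on both strands. These were the TATA box TATAAA, the AP-1 type site TGANTCA, the E-box CANNTG that basic helix-loop-helix factors bind, and the GC box GGGCGG. Gja1 lies at chr10:56377050-56377299 on the plus strand and Panx1 at chr9:15045479-15045728 on the minus strand.
Gja1: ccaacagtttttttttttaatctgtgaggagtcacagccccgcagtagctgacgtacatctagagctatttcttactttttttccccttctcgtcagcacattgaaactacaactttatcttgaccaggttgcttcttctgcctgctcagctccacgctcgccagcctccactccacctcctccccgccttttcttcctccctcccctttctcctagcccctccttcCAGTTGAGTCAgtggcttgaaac
Panx1: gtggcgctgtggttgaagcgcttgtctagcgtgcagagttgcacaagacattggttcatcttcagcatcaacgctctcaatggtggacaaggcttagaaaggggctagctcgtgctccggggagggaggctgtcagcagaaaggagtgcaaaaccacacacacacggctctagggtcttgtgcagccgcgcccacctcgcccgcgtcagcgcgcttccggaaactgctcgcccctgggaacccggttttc

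In the Gja1 window the capitals hold an E-box, CAGTTG, 23 to 18 bases before the start, which overlaps an AP-1 type match, TGAGTCA, 19 to 13 bases before it. Of all 32851 promoter windows of this length in the table, 6.75% held TGANTCA and 66.2% held CANNTG. The Panx1 window held none of the 4 motifs. TATAAA was in 12.4% and GGGCGG in 32.7% of all windows. The Gja1 window had 6 CpG dinucleotides, the median over all windows, and 50% G and C bases. The Panx1 window had 17 CpG dinucleotides and 59.6% G and C bases, and 76.5% of windows had fewer CpG. Among the other genes with an entry, Gjb2 held 2 GC boxes and 1 E-box and Gjd2 held 1 of each. Gjb6 held 1 E-box.

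The rest of the connexin and pannexin family was examined in the same way. In addition to the 7 genes, 12 others were measured of 16 listed, which makes 16 connexins and 3 pannexins in all. Of these 19 genes, 2 were higher in GFP+ progenitors, 2 were higher in RFP+ neurons and 15 did not pass, where 30% of all genes passed. Their median log2 difference was 0.00. Of the 12 others, only Gja3 and Gjd3 exceeded the olfactory receptor 95th percentile. The rest lay below it on all 6 arrays, so their small differences are those of near-background values. The 2 further calls were Gja4 and Gjd3.

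Gja4 encodes Cx37, a connexin of arterial endothelium. It read 198.3, 200.2 and 154.0 in GFP+ arrays and 71.3, 81.2 and 96.2 in RFP+ arrays, so the groups were apart although all 6 values lay below the olfactory receptor 95th percentile. The level was 2.02-fold higher in GFP+ arrays (log2 difference 1.02 ± 0.21 SE, adjusted p = 7.30e-04, limma). The summed intensity of endothelial markers was also higher in GFP+ arrays. It was 1735.7, 4262.6 and 6101.4 in those numbered 1 to 3, against 674.1 to 917.0 in RFP+ arrays. Among the GFP+ arrays Gja4 was lowest on number 3, where the endothelial sum was highest. With 3 values below the olfactory receptor 95th percentile, nothing can be concluded from that order. The part of endothelial cells in the Gja4 difference was not tested. Gja5 (Cx40), the other arterial connexin, did not pass (log2 difference -0.11 ± 0.24 SE, adjusted p = 0.762, limma).

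Gjd3 encodes the connexin known in the mouse as Cx30.2, which has been described in the cardiac conduction system. It read 441.3, 517.6 and 405.4 in GFP+ arrays and 611.2, 684.7 and 726.2 in RFP+ arrays. The groups did not overlap, and the level was 1.47-fold higher in neurons (log2 difference -0.56 ± 0.20 SE, adjusted p = 0.0433, limma). This call ended on leaving out any array other than GFP+ replicate 2, with an adjusted p of up to 0.133, and without both arrays numbered 1 (adjusted p = 0.125). Gjc3 (Cx29, a connexin of myelinating glia) came next on the progenitor side at 0.57 ± 0.22 SE without passing (adjusted p = 0.0527, limma). The other 8 genes of the family, Gja3, Gja6, Gja10, Gjb1, Gjb5, Gjd4, Gje1 and Panx3, had log2 differences of -0.35 (Gja10) to 0.23 (Gjb1).

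**Figure D2:**
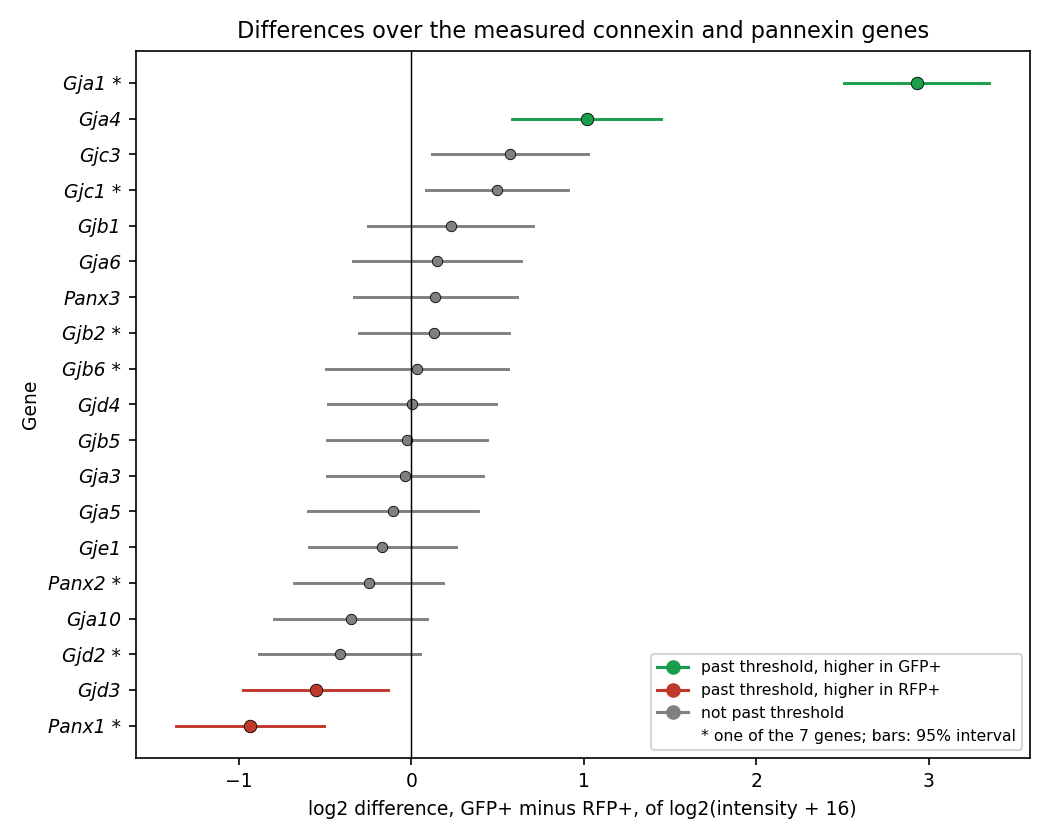
Log2 difference (GFP+ minus RFP+) of log2(intensity + 16) for the 19 measured connexin and pannexin genes with its 95% interval, green or red where past the threshold and grey otherwise. Gja1 at 2.93 stands apart at the progenitor end and Panx1 at -0.93 marks the neuron end.

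Among genes that bind, traffic or phosphorylate connexins, 9 of 23 measured passed, 5 higher in GFP+ progenitors and 4 higher in RFP+ neurons, where 13.7% and 16.2% of all genes did. The median log2 difference was -0.14. With the replicate number as a block 6 passed in each direction, while calls over all 19938 genes rose from 5973 to 7366. The further ones on this list were Ubqln4 (adjusted p = 0.0339, limma), Tsg101 (0.0426) and Cdh2 (0.0458), named for this change after their values were seen. Tjp1, which encodes the scaffold ZO-1 that binds the tail of Cx43, was 3.52-fold higher in progenitors (log2 difference 1.82 ± 0.23 SE, adjusted p = 4.64e-06, limma). It read 1050.6, 925.0 and 1785.0 in GFP+ arrays and 317.6, 320.2 and 352.6 in RFP+ arrays, apart by a wide gap. The caveolin genes Cav2 (2.67-fold) and Cav1 (2.18-fold) were higher in the same arrays, and both are also abundant in endothelial cells. Cav2 lay below the olfactory receptor 95th percentile on all 6 arrays and Cav1 on 4, so their folds are near-background values. On the neuronal side Prkce, a protein kinase C gene, was 3.92-fold higher (log2 difference -1.97 ± 0.20 SE, adjusted p = 2.28e-07, limma). It read 738.4, 816.0 and 819.3 in GFP+ arrays and 2853.4, 3633.0 and 2996.6 in RFP+ arrays. Ccn3, a secreted matricellular protein gene, was 2.39-fold higher in neurons, with all GFP+ values below the olfactory receptor 95th percentile, and Cnst, which encodes the connexin trafficking protein consortin, 2.10-fold higher.

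Of 22 genes of extracellular ATP and its breakdown, 4 were higher in GFP+ progenitors and 3 in RFP+ neurons, and 15 did not pass, a share near the 30% of all genes. The median log2 difference was -0.05. With the replicate block 4 passed in each direction, where 7366 of all 19938 genes passed. Alpl, an alkaline phosphatase gene, was 4.16-fold higher in progenitor arrays (log2 difference 2.05 ± 0.21 SE, adjusted p = 1.94e-07, limma). Of its 6 values only 1, in a GFP+ array, lay above the olfactory receptor 95th percentile, and with offset 64 the log2 difference was 1.46. P2ry14, a receptor gene for UDP-sugars, was 1.97-fold higher and Entpd1, an ectonucleotidase gene, 1.94-fold higher in the same arrays. The 3 genes higher in neurons encode ATP-gated channels: P2rx2 was 3.21-fold higher in neurons (log2 difference -1.68 ± 0.20 SE, adjusted p = 1.61e-06, limma), P2rx6 1.80-fold and P2rx4 1.55-fold. P2rx6 and P2rx4 stayed below the olfactory receptor 95th percentile on all 6 arrays, P2rx2 on the 3 GFP+ arrays, and Entpd1 on 4 arrays. The P2rx4 call ended when any 1 of 4 arrays was left out, numbers 1 and 2 of GFP+ and numbers 2 and 3 of RFP+ (adjusted p up to 0.127), and the P2rx6 call without both arrays numbered 1 (adjusted p = 0.0608). P2ry1, the ATP and ADP receptor gene known from radial glial calcium waves, had a log2 difference of -0.02 ± 0.21 SE (adjusted p = 0.956, limma) and also lay below that percentile on all 6 arrays.

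Of 11 genes of IP3 and calcium store signalling, 3 were higher in GFP+ progenitors and 4 in RFP+ neurons, against 13.7% and 16.2% of all genes, with a median log2 difference of 0.03. Itpr2, an IP3 receptor gene, was 3.56-fold higher in progenitors (log2 difference 1.83 ± 0.21 SE, adjusted p = 1.08e-06, limma), at 181.1, 192.0 and 235.6 in GFP+ arrays and 34.1, 49.1 and 54.1 in RFP+ arrays. Of these 6 values only the highest exceeded the olfactory receptor 95th percentile of its array. Phospholipase C beta genes went both ways: Plcb3 was 1.79-fold and Plcb4 1.55-fold higher in progenitors, and Plcb1 1.62-fold and Plcb2 1.48-fold higher in neurons. Plcb2 lay below the olfactory receptor 95th percentile on all 6 arrays. The G protein genes Gnaq and Gna11 were 1.56-fold and 1.49-fold higher in neurons. Calls of the smaller differences lay near the threshold and ended when any 1 of several arrays was left out. Calls over all genes fell too, from 5973 with all 6 arrays to between 4508 and 5559 with 1 array left out. The Plcb4 call ended without GFP+ replicate 3 or any 1 RFP+ array (adjusted p up to 0.171), and the Plcb1 call without GFP+ replicate 1, GFP+ replicate 2 or RFP+ replicate 3 (up to 0.0844). The Plcb2 call ended on leaving out any array other than GFP+ replicate 1 (up to 0.143). Gnaq lost its call without number 1 or 3 of GFP+ or number 1 or 2 of RFP+ (up to 0.0804), and Gna11 without any array other than GFP+ replicate 2 (up to 0.184). Without both arrays numbered 1, 3 of the 11 genes passed as higher in progenitors and 0 as higher in neurons by limma, where 10% and 9.26% of all genes passed (19.3% in all).

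Of 8 other large-pore channel genes, 2 were higher in GFP+ progenitors, 1 in RFP+ neurons and 5 did not pass (median log2 difference 0.04), where 30% of all genes passed. Lrrc8c, a subunit gene of the volume-regulated anion channel, was 3.37-fold higher in progenitors (log2 difference 1.75 ± 0.21 SE, adjusted p = 1.52e-06, limma). It read 1164.8, 1270.7 and 1229.9 in GFP+ arrays against 401.0, 384.4 and 279.1 in RFP+ arrays. Ano6, a lipid scramblase and channel gene, was 1.60-fold higher in progenitors. Lrrc8a, the subunit gene that every such anion channel requires, was 1.48-fold higher in neurons. The Ano6 call ended without GFP+ replicate 3 or RFP+ replicate 2 (highest adjusted p = 0.0638), and the Lrrc8a call without any array other than GFP+ replicate 2 (up to 0.138).

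**Figure D3:**
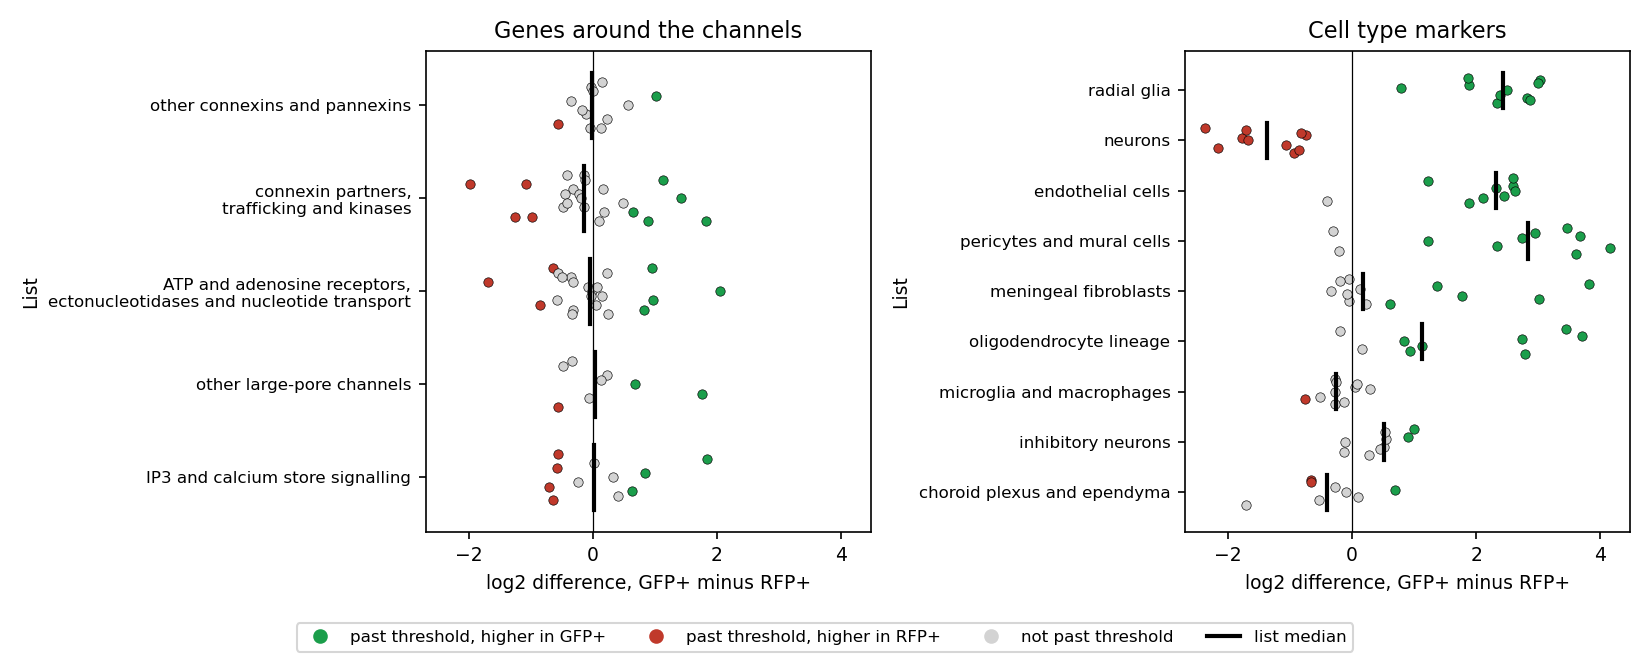
Log2 differences (GFP+ minus RFP+) of every measured gene on the lists of channel-related genes (left) and of cell type markers (right), 1 point per gene, coloured where past the threshold, with a black bar at the list median. The channel-related lists are centred near 0 with calls on both sides. The radial glia, endothelial and mural lists have medians of 2.44, 2.32 and 2.84, and the meningeal fibroblast list has one of 0.18.

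Several cell types other than radial glia are known to express Gja1, among them mural cells, meningeal fibroblasts and endothelial cells. Most mural and endothelial markers and some meningeal markers were also higher in GFP+ arrays. Of 10 pericyte and mural markers, 8 were higher in GFP+ arrays, with summed intensities of 6776.9 to 8460.4 against 1323.5 to 1470.9 in RFP+ arrays. Of 9 endothelial markers, 8 were higher. Of 12 meningeal fibroblast markers, 5 were higher and 7 did not pass, with sums of 3236.0 to 4001.5 against 1087.2 to 1271.5. The median log2 difference of this meningeal list was 0.18, and the 5 that passed ranged from 0.62 to 3.82. Of 9 oligodendrocyte lineage markers, 7 were higher in GFP+ arrays and 2 did not pass, with sums of 2035.5 to 3083.5 against 820.3 to 1088.5. This list shares a marker with the mural list, and the lineage is not among the Gja1-expressing types named above. No marker on these lists was at 0 on any array. The 10 radial glia markers had sums of 43573 to 45189 in GFP+ arrays and 9647.1 to 10681.6 in RFP+ arrays. Median log2 differences were 2.44 for radial glia, 2.84 for mural, 2.32 for endothelial and 1.13 for oligodendrocyte lineage markers, beside 2.93 for Gja1. The part of each cell type in the Gja1 difference was not tested.

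Single arrays stood apart in some of these lists. GFP+ replicate 1 had the lowest endothelial sum of its group, and without it the Gja1 difference was 3.001 and the Panx1 difference -0.92. RFP+ replicate 3 had the lowest sum of inhibitory neuron markers. It also had the highest sum of choroid plexus and ependymal markers, 2071.6 against 842.6 and 952.0 in the other RFP+ arrays. That excess lay in the single marker Ttr, which read 1203.6 on RFP+ replicate 3 and 11.5 and 41.3 on the other RFP+ arrays. Without RFP+ replicate 3 the Gja1 difference was 2.88 and the Panx1 difference -1.05, and both passed the threshold in each case.

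**Figure D4:**
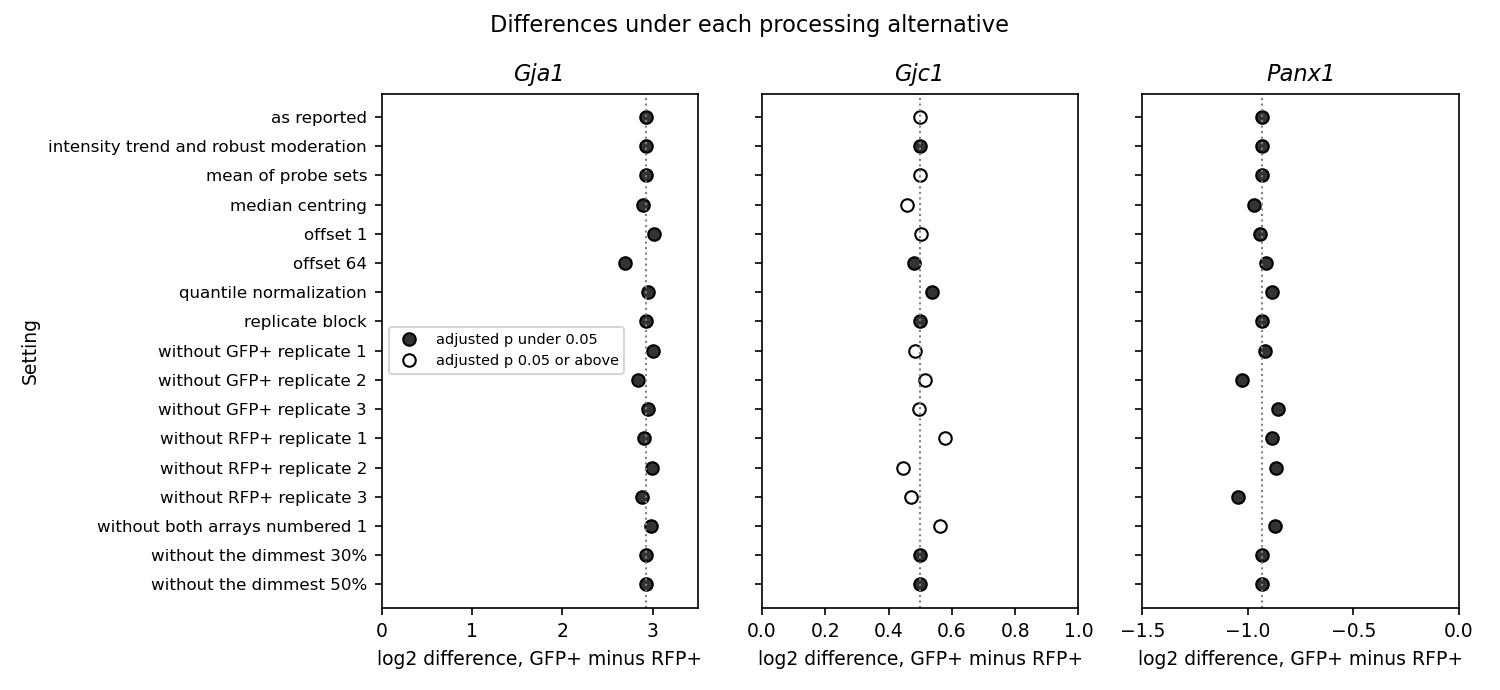
Log2 difference (GFP+ minus RFP+) of Gja1, Gjc1 and Panx1 as reported and under each of 16 processing alternatives, filled where the adjusted p was under 0.05. Gja1 stays between 2.69 and 3.01 and Panx1 between -1.05 and -0.86, always filled, whereas Gjc1 stays between 0.45 and 0.58 and is filled under 6 alternatives.

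The genes whose pattern over the 6 arrays was most like that of each channel gene were found by the root mean square (RMS) difference of log2(intensity + 16) after each gene's mean was subtracted. For Gja1 they were Mavs (RMS 0.06) and Nfe2l2 (0.08), with log2 differences of 2.82 and 2.90 between the groups. For Panx1 they were Abhd12 (0.04) and Cryab (0.05), at -0.96 and -0.86. For Gjc1 they were Cnnm3 (0.03) and Yod1 (0.04), at 0.50 and 0.44. For Gjb2 they were 3300002I08Rik and Spata18, and for Gjb6 Hoxc9 and Rergl. For Gjd2 they were Fam216b and Olfr644, and for Panx2 Brap and Olfr787. In these last 4 cases none of the like genes passed the threshold. With only 6 arrays and all genes searched, close matches of this kind are a description of the arrays.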

How the data were processed

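Total RNA of 6 samples was hybridised, each to its own Affymetrix whole-transcript array. Probe set intensities were analysed as the authors deposited them, and the submitters' processing notes name the Affymetrix Expression Console. The sources used here do not give its version, or how background, normalization and summarisation were handled. The number of arrays limits the precision.

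Of 35557 probe sets, 21789 carried 1 gene symbol, 1621 several and 12147 none here. Per gene the probe set with the highest mean log2 value was kept, which left 19938 genes with no filter on dim genes. The test ran on log2(intensity + 16) in limma 3.58.1 (lmFit, eBayes, two-sided) in R 4.3.3, with Benjamini-Hochberg adjustment over all genes. Intervals are 95% and per gene. Tables and figures used Python 3.11.15, pandas 2.3.3 and matplotlib 3.10.9.

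The 7 genes, the lists and the alternatives were chosen with earlier results of these data known. Genes named are the 7, the other connexins and pannexins, the 3 passing genes with the largest difference each way in each further channel-related list, and the 2 genes most like each of the 7. P2ry1, Plcb2 and the genes gained under the block were named after their values were seen. Genes listed but not measured are not analysed here.

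Same-numbered arrays of both groups deviated together from their group means. The correlations across genes were 0.204, 0.288 and 0.361, against -0.267 to 0.00422 for different numbers, so the numbers may pair the samples. Such deviations sum to 0 within a group and are not independent, and the labels do not explain the numbers. The fit without the block was kept, and the fit with the replicate number as a block was an alternative.

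On data simulated for this comparison over 19938 genes, a 1.5-fold change was called for 1 gene of 50, a 2-fold change for 18, a 4-fold change for 45 and an 8-fold change for all 50. False calls numbered 2 among 19738 unchanged genes. Only 50 genes were changed at each fold, whereas 30% of all genes passed in the real comparison. The Benjamini-Hochberg cutoff was thus stricter in the simulation, and these shares are not the power of the real comparison.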

Additional observations from a re-analysis of the deposited data

How the results depend on the processing

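Gja1 and Panx1 kept their direction and their call under all 16 alternatives, at 2.69 to 3.01 and -1.05 to -0.86, and Gjb2, Gjd2 and Panx2 kept their direction without passing under the 15 that could be run. Gjc1 passed with an intensity trend and robust moderation, without the dimmest 30% or 50% of genes and with the replicate block (0.50 in each), with offset 64 (0.48) and with quantile normalization (0.54). The replicate block raised the genes called to 7366 and changed no other call among the 7 genes. Gjb6 turned sign with median centring (-0.0063), without both arrays numbered 1 (-0.39) and with single arrays left out (-0.25 to 0.32). Without both arrays numbered 1, 3848 genes passed, with 1 of the other connexins and pannexins, 1 large-pore channel gene and 3 calcium store genes. With single arrays left out, 4508 to 5559 genes passed, 1 to 2 other connexins and pannexins, 1 to 3 large-pore channel genes and 3 to 5 calcium store genes. Quantile normalization left 4 calcium store genes. Removing the dimmest 30% or 50% of genes left 1 other connexin (6 and 2 tested), and the dimmest 50% left 3 ATP-related genes (4 tested). Gjb6 has no value without dim genes, nor Gjb2, Gjd2 and Panx2 without the dimmest 50%. Gjb6 was below the olfactory receptor 95th percentile on all 6 arrays and Gjd2 on 4, which limits their folds.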

Other observations

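Ttr, the transthyretin gene and a marker of choroid plexus, read 1203.6 on RFP+ replicate 3 and 8.0 to 61.8 on the other 5 arrays. It did not pass the threshold (adjusted p = 0.125, limma) and was named after its values were seen.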
